A study of Homo sapiens with 8 samples.

Results

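Islet-like cells differentiated from the human embryonic stem cell line H1 were compared after transduction on day 11 with ISL1-IRES2-BFP, a vector carrying ISL1 and blue fluorescent protein (labelled ISL1 OE), or with the BFP control vector, in wild-type (WT) cells harvested on day 18. The comparison rests on the library columns named WT-ISL1 (replicates 1 and 2) and WT-BFP (replicates 1 and 3), which are 4 of the 21 bulk RNA libraries of the study. The study as a whole also holds ISL1 KO, PAX6 KO and PDX1 KO cells given the same vectors. ISL1 KO and PAX6 KO cells are used here to set the WT changes beside the same vector's changes in other genotypes. The submitters describe 2 biological replicates for each WT condition without saying whether they came from separate differentiations, so every p-value below measures only the spread between libraries. All cells shared the H1 line and the same days of transduction and harvest. The fraction of cells that took up a vector is not given in the labels.

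ISL1 encodes a LIM-homeodomain transcription factor, a protein that binds DNA through a homeodomain and recruits cofactors such as LDB1 through its LIM domains. In the pancreas it is present in hormone-producing cells of the islet, where it is known to be required for their maturation and for the activity of hormone genes such as INS, GCG and SST. It also acts in motor and sensory neurons and in heart progenitors.

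Total gene counts were 55080445 and 55098282 in WT ISL1 OE replicates 1 and 2, against 54335570 and 40959467 in WT BFP replicates 1 and 3. Between 24733 and 26025 genes were detected in each of these 4 libraries. Correlations of log2 levels between the 4 libraries ran from 0.977 to 0.987, with both of the lowest values between WT BFP 3 and a WT ISL1 OE library. WT BFP 1 correlated at 0.9847 with WT ISL1 OE 2, 0.9832 with WT BFP 3 and 0.9825 with WT ISL1 OE 1. It was thus no nearer its own replicate than the WT ISL1 OE libraries as a group. WT BFP 1 was read on lanes 5 to 8 and the other 3 WT libraries on lanes 1 to 4. Levels below are CPM (estimated reads of a gene relative to all reads of its library, scaled by TMM), and log2 fold changes are WT ISL1 OE over WT BFP with the SE of the fit. Genes are described as called where edgeR's quasi-likelihood test, with Benjamini-Hochberg adjustment over all genes, gave an adjusted p below 0.05.

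The vector's own gene was measured first. ISL1 (ENSG00000016082, chr5:51383391-51394738) stood at 339 and 319 CPM in WT ISL1 OE libraries, against 292 and 493 CPM in WT BFP libraries. The groups overlapped, because WT BFP 3 was above both WT ISL1 OE libraries and WT BFP 1 below both. The log2 fold change was -0.25 ± 0.24 (SE, n = 2 and 2, adjusted p = 0.726), and 0.19 without WT BFP 3. The gene count does not show a higher ISL1 level in the libraries labelled ISL1 OE, and the label was not checked by its own RNA. The table does not separate transcripts of the vector from those of the chromosomal gene.

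Transcript-level estimates gave the same picture for the main form and a different one for the minor forms. ISL1-201, the transcript holding nearly all ISL1 reads, had estimated counts of 17366 and 16636 in WT ISL1 OE libraries, against 14253 and 17544 in WT BFP libraries. The shorter form ISL1-202 had 104.7 and 108.9 in WT ISL1 OE libraries, against 56.1 and 56.0 in WT BFP libraries. ISL1-203 had 63.2 and 58.0 in WT ISL1 OE libraries, against 39.5 and 24.9 in WT BFP libraries. Both minor forms were thus higher in each library labelled ISL1 OE than in each BFP library, at less than 1% of the ISL1 count. These estimates are not scaled to library size, and reads shared between the forms were divided by the authors' counting.

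Of 23015 genes tested, 388 were called in WT cells, which is 1.69% of them. WT ISL1 OE was higher for 183 genes (0.795%) and lower for 205 (0.891%). The change was at least 2-fold for 134 of the higher and 102 of the lower genes, and 168 and 199 were protein coding. In every one of the 388 the 2 groups did not overlap, as was the case for 19.8% (higher) and 23.3% (lower) of all genes tested. Because the libraries are bulk RNA, fewer cells of a type and less RNA per cell cannot be told apart.

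**Figure D1:**
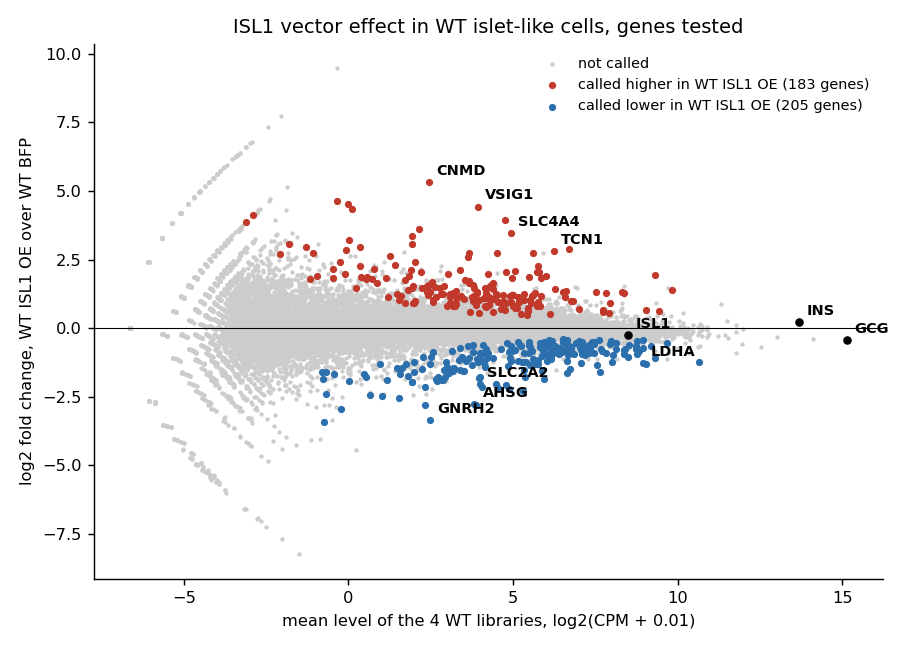
Log2 fold change of WT ISL1 OE over WT BFP against the mean level of the 4 WT libraries (log2 of CPM + 0.01) for the 23015 genes tested. Red points are the 183 genes called higher, blue the 205 called lower and grey the rest, with ISL1, INS and GCG in black near 0. The slanted lines of grey points at low levels are genes with few counts, many of them at 0 in 1 group.

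The number of calls depended on which libraries gave the spread. The fit used 19 libraries and left out PAX6 KO ISL1 OE replicate 3 and PDX1 KO ISL1 OE replicate 4, which belong to neither side of the comparison. An earlier analysis of these data had set both apart from their groups. PDX1 KO ISL1 OE holds only replicates 2 and 4, with limma-voom quality weights of 0.084 and 0.079, so which of them differs is not settled. The common dispersion was 0.0344 with 19 libraries and 0.1137 with all 21. With all 21 libraries, 8 genes were called higher and 0 lower, while 845 had an unadjusted p under 0.05. The 8 were CNMD, VSIG1, TCN1, RARRES2, NOX4, PSAPL1, KCNN4 and NMNAT3, and all 8 were among the 183. With the 4 WT libraries alone, 132 were called higher and 149 lower, of which 101 and 102 were among those called above. DESeq2 called 348 and 400, which held 181 of the 183 and all 205. Scaling by library size alone put the median of all genes at 0.08 on the log2 scale, against -0.01 with TMM, and gave 221 higher and 128 lower, so that 63.3% of calls were higher, against 47.2% with TMM.

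Each WT library also weighed on the count. Without WT BFP 3, the shallowest library, 30 genes were called higher and 21 lower. Without WT ISL1 OE 1 there were 59 and 20, and without WT ISL1 OE 2 there were 73 and 57. Without WT BFP 1, which leaves the libraries of lanes 1 to 4, there were 138 and 114. A lone library in a group is there assumed to vary like the other groups. WT BFP 3 was above WT BFP 1 for 66.8% of the 205 lower genes and 26.8% of the 183 higher genes, against 48.7% of all genes tested, so it lay on the far side from the WT ISL1 OE libraries more often than WT BFP 1 did. Calls kept without each of the 4 libraries in turn numbered 29 higher and 12 lower, and all 41 were also called with the WT libraries alone.

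Among called genes with a mean level of at least 2 log2 CPM, the largest rises in the libraries labelled ISL1 OE were in CNMD and VSIG1. CNMD, which encodes a cartilage glycoprotein, had 8.66 and 12.6 CPM in WT ISL1 OE libraries, against 0.204 and 0.336 CPM in WT BFP libraries. Its log2 fold change of 5.33 ± 0.66 (adjusted p = 0.000593) was the largest among called genes. VSIG1, a junction protein of the stomach lining, had estimated counts of 1242 and 1823 in WT ISL1 OE libraries, against 71 and 45 in WT BFP libraries, a log2 fold change of 4.43 ± 0.23 (adjusted p = 8.46e-08). The 2 groups lay far apart for both genes.

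PRDM14, a transcription factor of pluripotent and germ cells, stood at 50.7 and 51.5 CPM in WT ISL1 OE libraries, against 2.97 and 3.67 CPM in WT BFP libraries. Its log2 fold change was 3.95 ± 0.31 (adjusted p = 1.51e-05), and it was the single called member of the 10 pluripotency genes. SLC4A4, a sodium and bicarbonate cotransporter of duct and kidney cells, had 56.7 and 55.8 CPM in WT ISL1 OE libraries, against 5.23 and 4.87 CPM in WT BFP libraries, a log2 fold change of 3.47 ± 0.21 (adjusted p = 3.54e-07). RARRES2, which encodes the secreted protein chemerin, had 76.2 and 93.4 CPM in WT ISL1 OE libraries, against 14.2 and 11.0 CPM in WT BFP libraries. It rose by 2.75 ± 0.18 on the log2 scale (adjusted p = 1.12e-06). NOX4, an oxidase that makes hydrogen peroxide, had 36.4 and 42.8 CPM in WT ISL1 OE libraries, against 5.40 and 6.52 CPM in WT BFP libraries, a log2 fold change of 2.73 ± 0.27 (adjusted p = 0.000122). These 6 genes kept their call without each WT library in turn.

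TCN1, the vitamin B12 carrier haptocorrin, had 116.9 and 146.6 CPM in WT ISL1 OE libraries, against 21.1 and 16.2 CPM in WT BFP libraries (log2 fold change 2.82 ± 0.31). HSD11B2, which inactivates cortisol, had 18.8 and 24.2 CPM in WT ISL1 OE libraries, against 4.52 and 2.49 CPM in WT BFP libraries (2.60 ± 0.31). Both were kept without each library in turn. The other genes among the 15 largest rises were RUNX2, a bone-forming transcription factor, COL14A1, a fibril-associated collagen, KCNN2, a calcium-activated potassium channel, NPTX1, a neuronal pentraxin, LAMA3, a laminin chain, BMPR1B, a BMP receptor, and CBLIF, the gastric intrinsic factor. Their log2 fold changes ran from 2.07 for CBLIF to 3.62 for RUNX2. Of these, RUNX2, COL14A1, BMPR1B and CBLIF kept the call in 3 of the 4 fits that left out a library, and KCNN2, NPTX1 and LAMA3 in 1.

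Mesenchyme markers are given beside COL14A1, since it is a collagen. COL14A1 had 205 and 159 CPM in WT ISL1 OE libraries, against 27.6 and 21.3 CPM in WT BFP libraries (log2 fold change 2.89 ± 0.45, adjusted p = 0.00501). Summed over 14 mesenchyme markers, levels were 1879 and 2233 CPM in WT ISL1 OE libraries, against 1558 and 608 CPM in WT BFP libraries. WT BFP 3 was the low one, and the collagen COL3A1 shows it, with 1164 and 1277 CPM in WT ISL1 OE libraries, against 778 and 116.3 CPM in WT BFP libraries. None of the 14 was called, 10 of 14 had a positive log2 fold change, and the median was 0.27, against -0.01 over all genes tested. The sign of that median turned with single libraries, at -0.19 without WT BFP 3, -0.043 without WT ISL1 OE 2, 0.48 without WT ISL1 OE 1 and 1.43 without WT BFP 1. The part of these cells in the rise of COL14A1 was not tested.

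**Figure D2:**
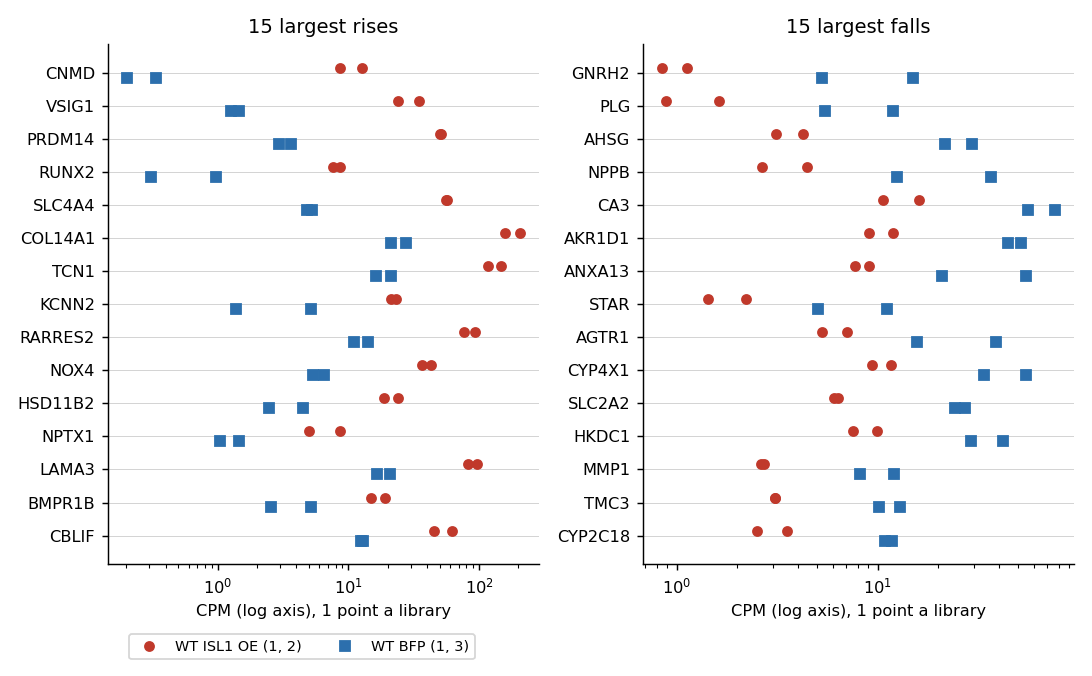
CPM on a log axis for the 15 largest rises (left) and 15 largest falls (right) by log2 fold change among called genes with a mean level of at least 2 log2 CPM. Red circles are the 2 WT ISL1 OE libraries and blue squares the 2 WT BFP libraries. The 2 groups are separate in every row, with the widest gap at CNMD (8.66 and 12.6 CPM in WT ISL1 OE, against 0.204 and 0.336 CPM in WT BFP).

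Among called genes with a mean level of at least 2 log2 CPM, the largest fall was in GNRH2, which encodes a gonadotropin-releasing hormone. WIF1, a secreted WNT inhibitor below that level, fell by more (-3.44 ± 0.69, adjusted p = 0.0135). GNRH2 had 0.850 and 1.12 CPM in WT ISL1 OE libraries, against 5.31 and 14.9 CPM in WT BFP libraries, a log2 fold change of -3.35 ± 0.51 (adjusted p = 0.00402). AKR1D1, a steroid reductase of bile acid synthesis, had 9.04 and 11.96 CPM in WT ISL1 OE libraries, against 44.6 and 51.9 CPM in WT BFP libraries, a log2 fold change of -2.20 ± 0.21 (adjusted p = 7.55e-05). AKR1D1 was the single one of the 15 largest falls at that level to keep its call without each library in turn. Below that level HTR4, a serotonin receptor (-2.45 ± 0.35), and the non-coding GACAT3 (-2.44 ± 0.31) kept it too, and these and WIF1 were named after their values were seen. The other 14 lost it without at least 2 of the 4 libraries, and for SLC2A2, HKDC1 and CYP2C18 it was lost without any of them.

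SLC2A2, the glucose transporter of beta cells and liver cells, had 6.38 and 6.06 CPM in WT ISL1 OE libraries, against 24.2 and 27.3 CPM in WT BFP libraries. The libraries of each group lay close together, yet the call (log2 fold change -2.05 ± 0.43, adjusted p = 0.0255) needed all 4 of them. Further falls of this size were seen in PLG, the clotting-system protein plasminogen, in NPPB, a natriuretic peptide, in CA3, a carbonic anhydrase, in ANXA13, an annexin of gut epithelium, and in STAR, which carries cholesterol into mitochondria. AGTR1, a receptor of angiotensin, CYP4X1 and CYP2C18, enzymes of the cytochrome family, HKDC1, a hexokinase, MMP1, a collagenase, and TMC3, a transmembrane channel-like protein, completed them. Their log2 fold changes, with AHSG described below, ran from -2.79 for PLG to -1.90 for CYP2C18.

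None of the 7 hormone genes was called in either direction, although 1 of them, GHRL, was called with the WT libraries alone. INS had 15740 and 12820 CPM in WT ISL1 OE libraries, against 13630 and 10640 CPM in WT BFP libraries, a log2 fold change of 0.24 ± 0.29 (adjusted p = 0.798). GCG had 32360 and 29330 CPM in WT ISL1 OE libraries, against 34790 and 49120 CPM in WT BFP libraries, a log2 fold change of -0.44 ± 0.49 (adjusted p = 0.769). SST had 150.5 and 142 CPM in WT ISL1 OE libraries, against 90.2 and 135 CPM in WT BFP libraries, a log2 fold change of 0.38 ± 0.54 (adjusted p = 0.831). INS overlapped between the groups, whereas GCG and SST did not overlap but differed by less than their SE.

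GHRL, encoding ghrelin, was the hormone farthest from 0, with 130.5 and 136 CPM in WT ISL1 OE libraries, against 79.6 and 90.3 CPM in WT BFP libraries (log2 fold change 0.65 ± 0.25, adjusted p = 0.286). The groups did not overlap, and with the 4 WT libraries alone GHRL was called higher (0.68, adjusted p = 0.0498). IAPP, encoding the amyloid peptide of beta cells, differed by 0.27 ± 0.35, PYY by 0.06 ± 0.41 and PPY, at 1.43 to 3.71 CPM in the 4 libraries, by 0.11 ± 0.71. With 2 libraries a side these SEs leave room for changes of the order of the values themselves.

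Among 41 islet transcription factors, 4 were called higher and 0 lower, against 0.795% and 0.891% of all genes tested. A positive log2 fold change was seen in only 11 of the 41, and the median was -0.07, against -0.01 over all genes tested. Called members numbered 1 without WT BFP 3, and the median ran from -0.30 to 0.079 when 1 library was left out. HHEX, a homeobox factor of delta cells, had 82.9 and 98.6 CPM in WT ISL1 OE libraries, against 24.8 and 26.5 CPM in WT BFP libraries. The groups were well apart, with a log2 fold change of 1.82 ± 0.27 (adjusted p = 0.00279), kept in 3 of 4 fits that left out a library. MEIS2, a homeodomain cofactor of the TALE class, had 50.4 and 62.4 CPM in WT ISL1 OE libraries, against 28.6 and 18.7 CPM in WT BFP libraries (1.25 ± 0.16, adjusted p = 0.00115, kept in 4 of 4). SOX11, a factor of immature neural and endocrine cells, rose by 1.05 ± 0.17 (adjusted p = 0.00433, kept in 3 of 4).

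The factors that set islet identity were not called. PDX1 had 93.9 and 76.7 CPM in WT ISL1 OE libraries, against 75.9 and 96.8 CPM in WT BFP libraries, a log2 fold change of -0.02 ± 0.16. PAX6 had 172 and 148 CPM in WT ISL1 OE libraries, against 147 and 240 CPM in WT BFP libraries, a log2 fold change of -0.27 ± 0.29. Both overlapped between the groups, and PAX6, like ISL1, was highest in WT BFP 3. NEUROD1 (-0.46 ± 0.22), INSM1 (-0.26 ± 0.19) and RFX6 (-0.02 ± 0.12) were likewise not called. Of 22 LIM-domain factors and cofactors tested, 0 were called, although 1.69% of all genes were. LMO4, a LIM-only protein, was the nearest at 0.74 ± 0.21 (adjusted p = 0.108). A list of 21 genes reported elsewhere as ISL1 targets held SLC2A2 as its single called member and had a median of -0.04, between -0.30 and 0.12 with 1 library left out.

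Markers of the islet cell types moved in few places. They are to be read beside all genes tested, of which 0.795% were called higher and 0.891% lower, with a median of -0.01. In the delta-cell list of 13 genes, HHEX and the netrin receptor UNC5B (0.85 ± 0.19, adjusted p = 0.0313, kept in 0 of 4 fits that left out a library) were called higher, 11 had a positive log2 fold change and the median was 0.38. In the beta-cell list 1 of 29 was called (SLC2A2, lower) with a median of -0.04, between -0.30 and 0.11 with 1 library left out. In the alpha-cell list 1 of 20 was called, the membrane protein TM4SF4, with 86.7 and 110.1 CPM in WT ISL1 OE libraries, against 214 and 172 CPM in WT BFP libraries (-0.97 ± 0.19, adjusted p = 0.0154, kept in 1 of 4). Among 27 genes of the secretory machinery, SYT4, a synaptotagmin of hormone and synaptic vesicles, was called higher with 480 and 451 CPM in WT ISL1 OE libraries, against 182 and 202 CPM in WT BFP libraries (1.28 ± 0.17, adjusted p = 0.00146). SYT4 kept its call without each library in turn, and the list's median was -0.11, between -0.33 and 0.043 with 1 library left out.

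The serotonin-making enterochromaffin-like cells of such cultures are marked by TPH1, DDC and SLC18A1. Of 13 markers, 12 had a negative log2 fold change and the median was -0.39, against -0.01 over all genes tested. Called members numbered 1 higher and 2 lower, against 0.795% and 0.891% of all genes tested. DDC, which makes serotonin and dopamine from their precursors, had 162 and 155 CPM in WT ISL1 OE libraries, against 296 and 300.4 CPM in WT BFP libraries (-0.91 ± 0.14, adjusted p = 0.0034). CBLN1, a secreted synaptic organiser, was also called lower (-1.14 ± 0.27, adjusted p = 0.0416), while TPH1 at -0.83 ± 0.30 was not called (adjusted p = 0.246). TRPA1, an irritant-sensing ion channel, was the exception and was called higher, with 25.4 and 22.7 CPM in WT ISL1 OE libraries, against 10.7 and 12.01 CPM in WT BFP libraries (1.09 ± 0.21, adjusted p = 0.0113). DDC kept its call in 3 of 4 fits that left out a library, and CBLN1 and TRPA1 in 1.

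Neural genes included a few single rises, where 0.795% of all genes tested were called higher. NEFL, a neurofilament chain, had 248 and 278 CPM in WT ISL1 OE libraries, against 111.7 and 97.8 CPM in WT BFP libraries (1.33 ± 0.20, adjusted p = 0.00281, kept in 3 of 4). It was the single called gene of 21 neuron markers, whose median was 0.02. Of 30 genes of axon guidance and synapses, LRRC4C (1.24 ± 0.23) and SEMA3C (1.29 ± 0.28), each kept in 1 of 4, were called higher, 23 had a positive log2 fold change and the median was 0.22, but -0.036 without WT ISL1 OE 1. CACNA1H, a T-type calcium channel, was the single call among 23 ion channels (0.96 ± 0.23, adjusted p = 0.0499, kept in 0 of 4).

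The trefoil genes TFF1, TFF2 and TFF3 rose, and VIL1, a gut brush-border protein, fell. The intestine and stomach list had 15 of 18 members tested, with 3 called higher and 1 lower, against 0.795% and 0.891% of all genes tested. Its median of 0.52 depended on single libraries, at 0.026 without WT BFP 3, 0.27 without WT ISL1 OE 1, 0.51 without WT ISL1 OE 2 and 0.65 without WT BFP 1. The members called higher numbered 3 without WT BFP 1 and 1 without any other of the 4. Trefoil peptides are secreted with mucus. TFF2 had 4.46 and 3.80 CPM in WT ISL1 OE libraries, against 0.672 and 0.672 CPM in WT BFP libraries (2.62 ± 0.37, adjusted p = 0.00206, kept without each library). TFF3 had 22.2 and 20.5 CPM in WT ISL1 OE libraries, against 9.88 and 6.97 CPM in WT BFP libraries (1.34 ± 0.28, adjusted p = 0.0204). TFF1 had 9.26 and 11.1 CPM in WT ISL1 OE libraries, against 4.78 and 2.44 CPM in WT BFP libraries (1.48 ± 0.34, adjusted p = 0.0414). TFF1 and TFF3 kept the call in 1 of 4 fits that left out a library, as VIL1 did in 0 (-0.56 ± 0.12, adjusted p = 0.0293). The intestinal factor CDX2 (-0.32 ± 0.21) and the mucins MUC2 and MUC6, at or near 0 counts, were not called, and MUC5AC and PGC were too low to be tested.

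Liver genes formed the list with the lowest median, -0.72. Of 18 tested, 5 were called lower, 0 higher, and 16 had a negative log2 fold change. Of all genes tested, 0.891% were called lower and the median was -0.01. AHSG, the plasma protein fetuin-A, had 3.13 and 4.26 CPM in WT ISL1 OE libraries, against 21.7 and 29.3 CPM in WT BFP libraries (-2.79 ± 0.48, adjusted p = 0.00879). FABP1, a fatty acid binding protein, had 45.8 and 51.5 CPM in WT ISL1 OE libraries, against 139.5 and 166 CPM in WT BFP libraries (-1.65 ± 0.32, adjusted p = 0.0139). The iron carrier TF fell by 1.22, the adhesion protein VTN by 0.77 and the protease inhibitor SERPINA1 by 0.76 on the log2 scale.

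AFP, the fetal plasma protein, showed the level at stake without being called, with 2176 and 2724 CPM in WT ISL1 OE libraries, against 4030 and 5116 CPM in WT BFP libraries (-0.90 ± 0.25, adjusted p = 0.0926). ALB, with 60.6 and 85.2 CPM in WT ISL1 OE libraries, against 153 and 102 CPM in WT BFP libraries, was not called either. Summed over the 18, levels were 17850 and 19860 CPM in WT ISL1 OE libraries, against 26800 and 29260 CPM in WT BFP libraries, which do not overlap. TTR, a thyroid hormone carrier that islet cells also make, did not follow (0.13 ± 0.19). The number of called liver genes was 4 without WT BFP 1, 0 without WT BFP 3, 0 without WT ISL1 OE 1 and 1 without WT ISL1 OE 2, while the median stayed between -0.82 and -0.63 in those 4 fits. The part of these cells in the other falls was not tested.

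**Figure D3:**
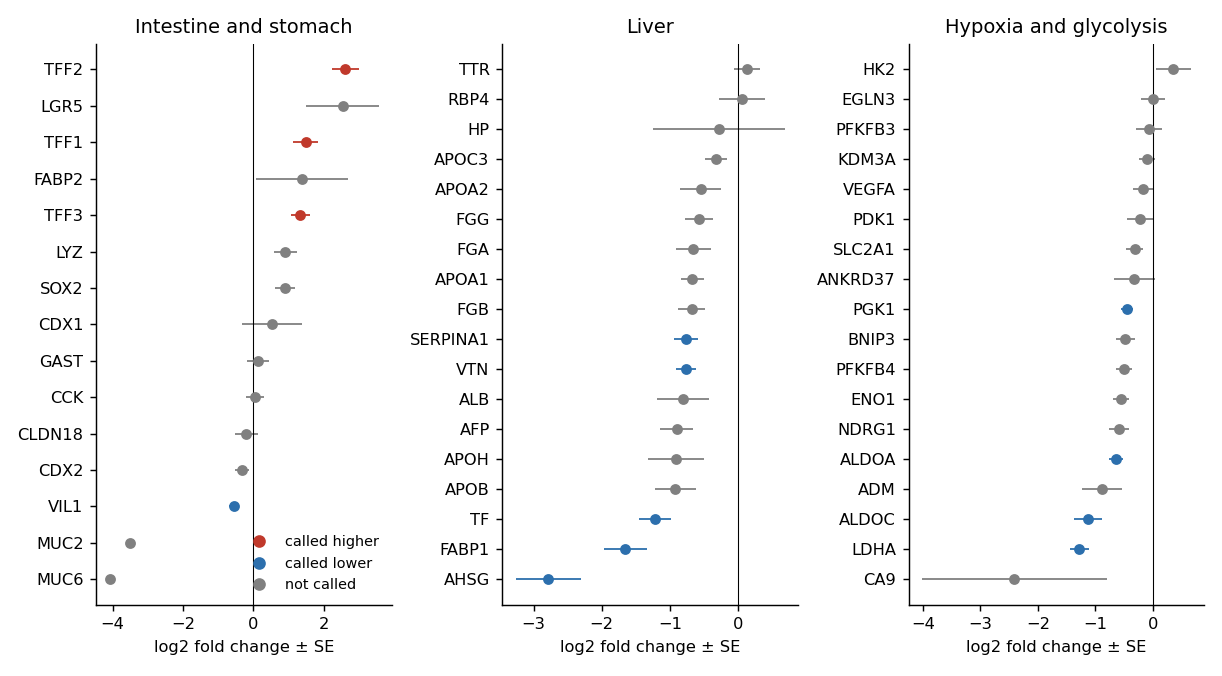
Log2 fold change of WT ISL1 OE over WT BFP with its SE for the tested members of 3 gene lists. Red marks genes called higher, blue genes called lower and grey genes not called. Most liver and glycolysis genes lie left of 0, and the trefoil genes TFF1, TFF2 and TFF3 right of it. MUC2 and MUC6, at 0 in both WT ISL1 OE libraries, have no SE.

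The genes of hypoxia and glycolysis were mostly lower in WT ISL1 OE. Of 18 tested, 4 were called lower, 0 higher, 17 had a negative log2 fold change, and the median was -0.46. The share called lower over all genes tested was 0.891%, with a median of -0.01. LDHA, which turns pyruvate into lactate, had 247 and 335 CPM in WT ISL1 OE libraries, against 611 and 803 CPM in WT BFP libraries. Its log2 fold change of -1.28 ± 0.17 (adjusted p = 0.001) was kept without each library in turn. The aldolases ALDOA (-0.65 ± 0.12, adjusted p = 0.0106) and ALDOC (-1.13 ± 0.24, adjusted p = 0.0252) and the kinase PGK1 (-0.44 ± 0.11, adjusted p = 0.0434) were the others called. ENO1, enolase, lay just past the threshold (-0.56 ± 0.14, adjusted p = 0.0517). The hypoxia-regulated genes VEGFA (-0.17 ± 0.17), KDM3A (-0.11 ± 0.13) and EGLN3 (0.00 ± 0.21) were not called. Other hypoxia-regulated genes, outside the list and named after their values were seen, were called lower. They were STC1 (-1.48 ± 0.20), HILPDA (-1.12 ± 0.23), P4HA1 (-0.72 ± 0.17), PLOD2 (-0.69 ± 0.17) and FAM162A (-0.53 ± 0.12). Called members numbered 3 without WT BFP 1, 1 without WT BFP 3, 1 without WT ISL1 OE 1 and 2 without WT ISL1 OE 2.

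The remaining lists held few calls or none. CLDN5, a tight-junction claudin, was the single call among 8 endothelial markers, at 13.7 and 13.0 CPM in WT ISL1 OE libraries, against 25.7 and 31.1 CPM in WT BFP libraries (-1.09 ± 0.14, adjusted p = 0.000762). The list did not follow it, since 5 of the 8 had a positive log2 fold change. Their median was 0.60, between 0.092 and 0.73 with 1 library left out. Over all genes tested, 0.891% were called lower and the median was -0.01. The defining endothelial genes PECAM1 and VWF stood below 0.5 CPM in all 4 libraries. BHLHA15 of acinar cells fell by 0.92, RSPO3 of WNT signalling by 1.10, and BMP7 rose by 0.95 on the log2 scale, each alone in its list and lost without at least 2 of the 4 libraries. In the list of gamma and epsilon cells MEIS2 was called higher and ASGR1, a liver lectin, lower (-1.78 ± 0.30).

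No member was called of the lists of endocrine progenitors, pancreatic progenitors and duct, mesenchyme, proliferation, ER stress, interferon response, p53 response, immediate early genes, cholesterol synthesis, Notch or mitochondrially encoded genes. Some of these leaned to 1 side. A positive log2 fold change was seen in 18 of 20 proliferation genes (median 0.24), 1 of 17 ER stress genes (median -0.33), 2 of 18 immediate early genes (median -0.34) and 3 of 20 cholesterol synthesis genes (median -0.22). The same held for 3 of 16 endocrine progenitor genes, with a median of -0.06, between -0.40 and 0.071 with 1 library left out. The proliferation median rested on single libraries, at -0.0095 without WT BFP 3, 0.029 without WT ISL1 OE 2, 0.38 without WT ISL1 OE 1 and 0.54 without WT BFP 1. Summed proliferation genes did not separate the groups, at 984 and 1260 CPM in WT ISL1 OE libraries, against 1134 and 755 CPM in WT BFP libraries. Mitochondrially encoded RNA summed to 7379 and 9607 CPM in WT ISL1 OE libraries, against 8762 and 9769 CPM in WT BFP libraries.

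**Figure D4:**
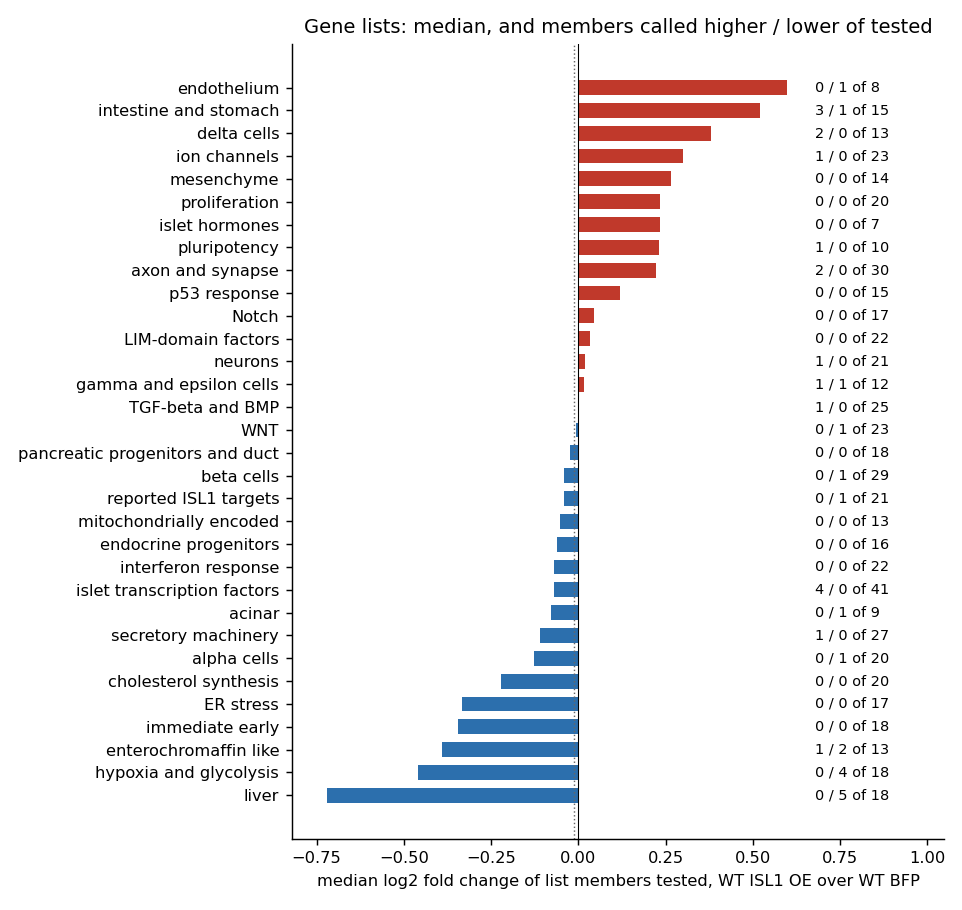
Median log2 fold change of WT ISL1 OE over WT BFP for the tested members of 32 gene lists, in order. Numbers at the right give members called higher / called lower of those tested, and the dotted line is the median of all genes tested (-0.01). Liver (-0.72) and hypoxia and glycolysis (-0.46) lie lowest.

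Promoter sequences are shown for members of the groups that moved, so that letters matching known transcription factor motifs can be read beside the values. RefSeq promoters (GRCh38.p14, the 250 bases before an annotated start) were matched by symbol for 14952 of the genes tested, 134 of the 183 higher and 153 of the 205 lower. A gene can have several such starts, some of them inside it. The NOX4 and CDH12 stretches given below lie inside their genes (chr11:89324356-89498187 and chr5:21750673-22853622). VSIG1, TFF1, TFF2 and TFF3 had no entry. CTAATG, a LIM-homeodomain type motif, was searched on both strands. At least 1 promoter held it for 15 of the 134 higher genes (11.2%) and 6 of the 153 lower genes (3.92%), against 5.38% of all genes tested. Genes with more promoters have more places for a match. Counted by promoter, it was held by 15 of 217 in higher genes (6.91%) and 6 of 199 in lower genes (3.02%), against 4.01% of all promoters. Promoters of NOX4 (chr11:89492220-89492469, minus strand), ANXA10 (chr4:168092287-168092536, plus strand) and CDH12 (chr5:22212770-22213019, minus strand) are given with the match, CTAATG or its reverse complement CATTAG, in capitals.
NOX4: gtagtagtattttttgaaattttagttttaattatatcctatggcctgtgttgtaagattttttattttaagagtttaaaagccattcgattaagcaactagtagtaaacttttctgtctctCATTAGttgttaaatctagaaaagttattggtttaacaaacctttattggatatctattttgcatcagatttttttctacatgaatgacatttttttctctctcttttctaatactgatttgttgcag
ANXA10: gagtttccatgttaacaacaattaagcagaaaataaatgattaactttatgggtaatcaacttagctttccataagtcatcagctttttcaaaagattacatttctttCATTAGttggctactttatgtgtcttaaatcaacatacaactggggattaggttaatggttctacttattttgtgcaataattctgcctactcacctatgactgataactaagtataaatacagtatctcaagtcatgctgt
CDH12: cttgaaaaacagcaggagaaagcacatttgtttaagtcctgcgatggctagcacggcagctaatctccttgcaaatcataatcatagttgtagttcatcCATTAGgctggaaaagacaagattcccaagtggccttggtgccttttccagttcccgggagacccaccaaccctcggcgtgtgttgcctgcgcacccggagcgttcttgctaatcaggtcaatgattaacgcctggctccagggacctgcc
ANXA10, an annexin of the stomach, had 4.70 and 6.54 CPM in WT ISL1 OE libraries, against 1.59 and 1.37 CPM in WT BFP libraries (1.92 ± 0.38, adjusted p = 0.0148, kept in 0 of 4), and was named after its value was seen. CDH12, a neural cadherin, had 17.6 and 19.6 CPM in WT ISL1 OE libraries, against 8.47 and 10.02 CPM in WT BFP libraries (1.01 ± 0.14, adjusted p = 0.00146). The general homeodomain motif TAATTA, which reads the same on both strands, was held by 11 of 134 higher genes (8.21%) and 8 of 153 lower genes (5.23%), against 3.62% of all genes tested. None of these matches shows binding.

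GTTAAT, a partial binding motif of the hepatocyte factor HNF1, was held by 10 of 134 higher genes (7.46%) and 17 of 153 lower genes (11.1%), against 5.97% of all genes tested. It was searched on both strands, and the match, GTTAAT or ATTAAC, is in capitals in promoters of the plasma protein genes PLG (chr6:160701994-160702243, plus strand) and SERPINA1 (chr14:94388603-94388852, minus strand) and of FABP1 (chr2:88128063-88128312, minus strand).
PLG: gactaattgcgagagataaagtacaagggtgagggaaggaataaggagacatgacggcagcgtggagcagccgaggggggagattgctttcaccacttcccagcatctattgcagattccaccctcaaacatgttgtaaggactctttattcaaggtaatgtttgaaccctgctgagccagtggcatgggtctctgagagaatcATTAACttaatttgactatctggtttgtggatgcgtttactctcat
FABP1: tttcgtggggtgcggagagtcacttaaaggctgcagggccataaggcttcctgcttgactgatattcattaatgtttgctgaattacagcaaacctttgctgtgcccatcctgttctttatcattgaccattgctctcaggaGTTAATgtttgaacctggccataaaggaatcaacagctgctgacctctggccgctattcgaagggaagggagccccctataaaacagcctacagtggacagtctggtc
SERPINA1: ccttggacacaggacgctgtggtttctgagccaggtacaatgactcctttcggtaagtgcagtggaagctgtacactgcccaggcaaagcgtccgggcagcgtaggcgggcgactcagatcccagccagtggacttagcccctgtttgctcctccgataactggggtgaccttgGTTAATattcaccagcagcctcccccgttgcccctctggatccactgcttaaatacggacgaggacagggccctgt
PLG stood at 0.889 and 1.62 CPM in WT ISL1 OE libraries, against 5.48 and 11.9 CPM in WT BFP libraries. SERPINA1 stood at 239 and 258 CPM in WT ISL1 OE libraries, against 389.5 and 453 CPM in WT BFP libraries. The SERPINA1 stretch lies inside its gene (chr14:94376747-94390693).

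ACGTG, the core of the hypoxia response element, was common in all groups. It was held on either strand by 32 of 134 higher genes (23.9%) and 37 of 153 lower genes (24.2%), against 26.6% of all genes tested. The glycolysis genes LDHA (chr11:18394313-18394562, plus strand), ALDOC (chr17:28576896-28577145, minus strand) and PGK1 (chrX:78103998-78104247, plus strand) held it more than once, and matches of ACGTG or CACGT, which overlap where the letters read CACGTG, are in capitals. Like the NOX4, CDH12 and SERPINA1 stretches above, those of ALDOC and PGK1 lie inside the genes as GENCODE 29 spans them (chr17:28573115-28577264 and chrX:77910739-78129296).
LDHA: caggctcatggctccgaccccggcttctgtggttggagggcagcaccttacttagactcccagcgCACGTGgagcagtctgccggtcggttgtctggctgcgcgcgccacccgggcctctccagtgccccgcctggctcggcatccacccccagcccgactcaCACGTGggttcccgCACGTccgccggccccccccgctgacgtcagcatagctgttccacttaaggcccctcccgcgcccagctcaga
ALDOC: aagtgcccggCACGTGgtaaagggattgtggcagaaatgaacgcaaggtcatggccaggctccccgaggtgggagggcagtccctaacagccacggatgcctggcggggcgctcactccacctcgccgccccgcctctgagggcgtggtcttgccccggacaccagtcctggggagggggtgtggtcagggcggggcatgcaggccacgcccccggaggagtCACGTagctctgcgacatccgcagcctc
PGK1: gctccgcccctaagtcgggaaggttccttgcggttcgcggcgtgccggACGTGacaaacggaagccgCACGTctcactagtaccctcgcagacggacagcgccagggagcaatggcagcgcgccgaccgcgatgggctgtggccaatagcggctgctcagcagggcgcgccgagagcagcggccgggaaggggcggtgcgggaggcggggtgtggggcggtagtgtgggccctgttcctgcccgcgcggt
PGK1 stood at 393 and 446 CPM in WT ISL1 OE libraries, against 542 and 599 CPM in WT BFP libraries. ALDOC stood at 31.6 and 29.3 CPM in WT ISL1 OE libraries, against 56.8 and 76.6 CPM in WT BFP libraries.

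The same vector was also given to ISL1 KO cells (3 ISL1 OE and 3 BFP libraries) and to PAX6 KO cells (2 ISL1 OE libraries after the one left out, and 3 BFP), and these effects share no library with the WT comparison, though all were fitted together. Of the 183 genes higher in WT ISL1 OE, 110 were also called higher in ISL1 KO cells. That is 60.1% of the 183 and 20.4% of the 540 genes called higher there, which make up 2.35% of all genes tested. In PAX6 KO cells 95 were called higher, 51.9% of the 183 and 22.5% of the 422 called there (1.83% of all genes). Rises that kept their call without each WT library were also called higher in ISL1 KO cells for 24 of 29 genes and in PAX6 KO cells for 23 of 29.

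For the falls the counts were as follows. Of the 205 genes lower in WT ISL1 OE, 35 were also called lower in ISL1 KO cells, which is 17.1% of the 205 and 4.26% of the 821 called there (3.57% of all genes). In PAX6 KO cells 37 were called lower, 18% of the 205 and 3.85% of the 961 called there (4.18% of all genes). Falls that kept their call without each WT library were also called lower in ISL1 KO cells for 2 of 12 genes and in PAX6 KO cells for 1 of 12. Calls in the opposite direction numbered 1 or 2 in each of the 4 pairings. A negative log2 fold change was shared by 82.4% of the 205 in ISL1 KO cells, against 49.5% of all genes tested. In PAX6 KO cells it was shared by 78.5%, against 50.8%. For the 183 genes a positive one was shared by 92.9% (ISL1 KO, against 50.3%) and 86.9% (PAX6 KO, against 49%). Median log2 fold changes in the same order were 0.81 in ISL1 KO and 0.74 in PAX6 KO cells for the 183 genes, whose median in WT was 1.30. For the 205 genes they were -0.22 and -0.28, with a median in WT of -0.998, nearer 0 than in WT. Both sets were picked by their WT change, and how far this alone sets the other medians nearer 0 was not tested. The vector effects over all genes had medians of 0.00 and -0.01. LDHA is an example, with -0.12 in ISL1 KO cells (adjusted p = 0.692) and -0.13 in PAX6 KO cells (adjusted p = 0.655), and its WT effect differed from that in ISL1 KO cells by -1.16 ± 0.21 (adjusted p = 0.0337). Its difference from PAX6 KO cells, -1.15 ± 0.22, was not called (adjusted p = 0.0548).

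**Figure D5:**
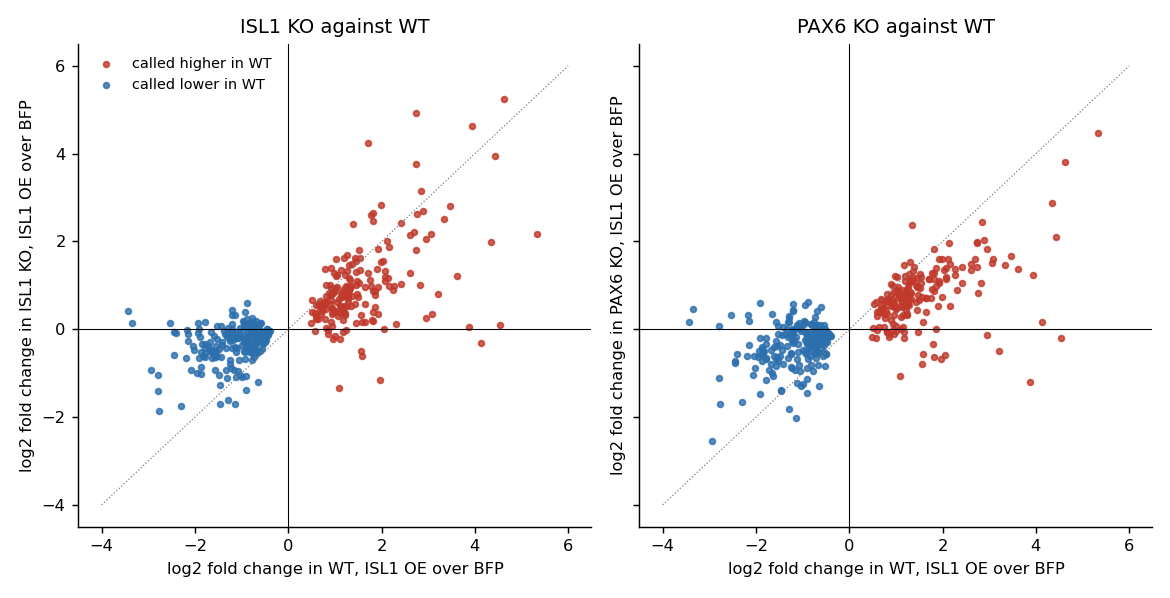
Log2 fold change of ISL1 OE over BFP in ISL1 KO cells (left) and PAX6 KO cells (right) against that in WT cells, for the 388 genes called in WT. Red points (183 genes higher in WT) lie mostly above 0 on the vertical axis, with medians of 0.81 and 0.74. Blue points (205 genes lower in WT) lie mostly below 0 but near it, with medians of -0.22 and -0.28. The dotted line marks equal effects.

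Where the vector effect itself differed between genotypes was tested in the same fit. The WT effect differed from that in ISL1 KO cells for 72 genes (0.313% of those tested) and from that in PAX6 KO cells for 13 (0.0565%). Both counts moved by more than 1.5 times without single WT libraries. Without WT BFP 3 they were 4 and 1, without WT ISL1 OE 1 they were 6 and 1, and without WT ISL1 OE 2 they were 21 and 26. The WT minus PAX6 KO count was 8 without WT BFP 1, and with all 21 libraries the counts were 1 and 0.

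The hormone GCG showed the widest gap of the genes named, with an effect of -0.44 ± 0.49 in WT and 5.34 ± 0.40 in ISL1 KO cells, a difference of -5.78 ± 0.63 (adjusted p = 0.00137). Its level in ISL1 KO cells averaged 3305 CPM with ISL1 OE and 81.8 CPM with BFP. SLC24A4, a sodium, calcium and potassium exchanger, differed in the same way by -4.61 ± 0.51 (adjusted p = 0.00102), and G6PC2, the glucose phosphatase subunit of islet cells, by -2.67 ± 0.34 (adjusted p = 0.00991). These 3 genes were not called in WT. VSIG1 rose in all 3 genotypes, by 4.43 in WT, 3.96 in ISL1 KO and 2.10 in PAX6 KO cells on the log2 scale, and the WT and PAX6 KO effects differed by 2.33 ± 0.30 (adjusted p = 0.0096). TRPA1 turned direction, rising in WT cells and falling by 1.34 in ISL1 KO cells and by 1.07 in PAX6 KO cells on the log2 scale. GNRH2, the largest fall in WT by the naming rule, had -3.35 in WT against 0.15 in ISL1 KO cells, a difference of -3.50 ± 0.66 (adjusted p = 0.0395). Its mean level was 0.96 CPM with ISL1 OE and 0.87 CPM with BFP in ISL1 KO cells.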

How the data were processed

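Bulk RNA-seq of 21 libraries, each on 4 lanes, was used. The labels' protocols name a Zymo Research Quick-RNA kit, SMART-Seq v4 and KAPA EvoPrep. These keep neither strand nor molecule identity, so antisense and overlapping genes can share reads. The authors deposited estimated counts by gene, library and lane. STAR and GRCh38 are named in the submitters' processing notes, but no source used here names the counting program. The authors also deposited TPM values, used in 1 alternative as log2(TPM + 1). Estimated transcript counts, as deposited, served for ISL1 alone. Another 12 columns belong to 3 libraries that could be tied to no sample and were left out.

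Lanes were summed (lowest correlation between lanes 0.990) and the sums rounded. Symbols came from a gene name table and otherwise from GENCODE 29, for 34752 of 38592 identifiers, and gene coordinates are those of GENCODE 29 on GRCh38. Depth of the 4 WT libraries was 40959467 to 55098282 counts. The test was edgeR (4.0.16, R 4.3.3): TMM, the default filterByExpr filter, a mean for every group over 19 libraries, the quasi-likelihood F test (11 residual degrees of freedom, common dispersion 0.0344) and Benjamini-Hochberg adjustment over 23015 genes. It was also run on counts simulated from its own fit, which cannot show how the calls depend on single libraries. Alternatives used DESeq2 1.42.0 and limma 3.58.1. Genes named were ISL1, PAX6, PDX1 and hormones, the 15 largest rises and falls among called genes with a mean log2 CPM of 2 or more and separate groups, up to 5 called members of each list, and the 5 largest differences of effects on each side. Further genes were named for contrast after their values were seen. Members and lists were chosen with earlier results of these data known. Some members of the lists are not reported here.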

Additional observations from a re-analysis of the deposited data

Results flagged for a closer look

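Each value here is the log2 vector effect in WT cells minus that in a knockout, flagged because the difference itself passed edgeR's quasi-likelihood test with Benjamini-Hochberg adjustment. Against ISL1 KO cells the WT effect was more positive for TRPA1 (2.43 ± 0.26), ADH6 (2.18 ± 0.32), NELL2 (2.05 ± 0.37), TMEFF2 (1.94 ± 0.36) and NELL1 (1.90 ± 0.30). It was more negative for GCG (-5.78 ± 0.63), SLC24A4 (-4.61 ± 0.51), GNRH2 (-3.50 ± 0.66), G6PC2 (-2.67 ± 0.34) and RIPPLY3 (-2.52 ± 0.28). RIPPLY3, a transcriptional co-repressor of pharyngeal and pancreatic development, rose in both genotypes, by 1.71 in WT and 4.24 in ISL1 KO cells on the log2 scale.

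Against PAX6 KO cells the WT effect was more positive for PRDM14 (2.72 ± 0.41), NELL2 (2.34 ± 0.39), VSIG1 (2.33 ± 0.30), TRPA1 (2.15 ± 0.28) and CHST2 (1.89 ± 0.27), and more negative for CLDN1 (-1.80 ± 0.30), ME2 (-1.15 ± 0.20) and ANXA4 (-1.11 ± 0.15). PRDM14 and VSIG1 stood higher in PAX6 KO BFP libraries (means of 27.4 and 7.398 CPM) than in WT BFP libraries, and with ISL1 OE they averaged 64.2 and 31.6 CPM in PAX6 KO cells. NELL2 lost its call without each of the 4 WT libraries in both contrasts.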

How the results depend on the processing

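No paired analysis was possible because the WT groups share only replicate number 1. The count of higher genes was 348 with DESeq2 and 8 with all 21 libraries, and 30 to 138 when 1 WT library was left out. Lower genes numbered 400 with DESeq2, 0 with all 21 libraries, 128 with library size alone, 321 with limma-voom and quality weights, and 20 to 114 with 1 WT library left out. For WT minus ISL1 KO the calls were 409 with DESeq2, 1 with all 21 libraries, 161 with limma-voom and 186 without the filter on low counts, and 4 to 62 with 1 library left out. For WT minus PAX6 KO they were 364, 0, 135 and 106 in the same order, 29 with library size alone, 36 on log2(TPM + 1), and 1 to 26 with 1 library left out. Of 71 named genes, 56 lost a call with all 21 libraries, 47 without WT BFP 3 and 39 without WT ISL1 OE 1. The 71 include ISL1, PAX6, PDX1 and the 7 hormone genes, which were not called and so had no call to lose. Of the called genes among the 71, only CNMD, VSIG1, TCN1, RARRES2 and NOX4 kept the call with all 21 libraries. The cause of the losses was not tested.

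Signs turned for genes near 0. With 1 WT library left out, log2 fold changes ran from -0.58 to 0.19 for ISL1, from -0.58 to 0.13 for PAX6, from -0.65 to 0.90 for PPY, from -0.054 to 0.21 for PYY and from -0.18 to 0.18 for PDX1. PDX1 stood at 0.0059 with the WT libraries alone, 0.078 with library size alone and 0.10 on log2(TPM + 1). Wherever a called gene is given as kept in fewer than 4 of 4 fits, its call was lost without the remaining libraries and for genes chosen by the naming rule its direction held. Both the 2 libraries a side and the depth limit precision, and the share of each was not tested.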

Other observations

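Further gene groups were put together after the values were seen, as families, pathways or marker sets, and are given as counts without a test. They hold genes already seen to be called, such as VSIG1, TCN1 and CBLIF in the stomach group. Their counts are therefore no independent result. Over all genes tested, 0.795% were called higher and 0.891% lower. Among 28 tested genes of retinoid handling, 4 were called higher, also without WT BFP 1 but only 1 without any other of the 4 WT libraries, the receptor RARB (0.92 ± 0.19), RARRES2, and the alcohol dehydrogenases ADH1B (2.04 ± 0.41) and ADH1C (2.17 ± 0.39), whose near-identical copies may share reads. Of 21 tested stomach genes, 9 were called higher and 0 lower, VSIG1, VSIG2, TFF1, TFF2, CBLIF, TCN1, ANXA10, SLC9A4 and SOX21, while the acid pump genes ATP4A and ATP4B stayed below 0.3 CPM in all 4 libraries. The 9 became 6 without WT BFP 1, 3 without WT BFP 3, 4 without either WT ISL1 OE library and 2 with all 21 libraries.

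Of 25 genes of serine synthesis and the amino acid stress response, 6 were called lower and 0 higher. The 6 became 5 without WT BFP 1, 1 without WT BFP 3, 1 without WT ISL1 OE 1, 3 without WT ISL1 OE 2 and 0 with all 21 libraries. PCK2, a mitochondrial gluconeogenic enzyme, had 53.1 and 60.7 CPM in WT ISL1 OE libraries, against 103 and 108 CPM in WT BFP libraries (-0.89 ± 0.13). GLDC, of glycine cleavage, had 71.5 and 66.5 CPM in WT ISL1 OE libraries, against 136 and 132 CPM in WT BFP libraries (-0.96 ± 0.17). PSAT1, PSPH and MTHFD2 fell by 0.70 to 0.80 on the log2 scale and WARS1 by 0.54, while PHGDH, the first enzyme of the same pathway, was not called (-0.07). Of 20 tested receptors and antagonists of BMP and related TGF-beta family ligands, BMPR1B, BMPER, WFIKKN1 and LEFTY1 were called higher. That count of 4 was lower without WT BFP 3 and fell to 0 with all 21 libraries. For PCK2 and BMPER the call was kept without each WT library in turn.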
